A study of Saccharomyces cerevisiae with 8 samples.

Results

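The genes described here encode protein components of the yeast mitochondrial ribosome. They were chosen by name, as every open reading frame (ORF) of the array table whose standard symbol is MRPL, MRPS or RSM followed by digits only, which gave 54 of the 6212 ORFs in the table. Of these, 34 carry an MRPL symbol and belong to the large subunit, and 20 carry an MRPS or RSM symbol and belong to the small subunit. No measured value entered that choice.

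Mitochondria keep a ribosome of their own, which translates the few proteins that the mitochondrial genome encodes, most of them membrane subunits of the respiratory chain and of the ATP synthase. In yeast nearly all of its proteins are encoded in the nucleus, made in the cytosol and imported. Some descend from bacterial ribosomal proteins and some have no bacterial counterpart, and cells that lack mitochondrial translation cannot respire, although they still grow on glucose by fermentation.

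Transcript levels were measured on spotted 2-colour arrays of PCR-amplified ORFs, with a mutant and the wild type (wt) hybridised together on each of 8 arrays. Both mutants were made in the haploid laboratory strain BY4741, and all cultures grew to log phase in rich glucose medium (YPD) at 28 °C with no further treatment. The ptc1 ptc6 cells carried ptc1::NAT and ptc6::kanMX4 and so lacked 2 protein phosphatases of the 2C type, Ptc1 and Ptc6. The ptc6 cells carried ptc6::kanMX4 alone, the wt cells carried neither deletion, and a ptc1 single mutant was not analysed here. Each mutant had 2 biological replicates with 2 dye-swapped arrays each (in ptc1 ptc6, experiments 1 and 2 for replicate 1 and experiments 3 and 4 for replicate 2; in ptc6, experiments 1 and 2 for replicate 1 and experiments 5 and 6 for replicate 2). The mutant was labelled with Cy3 in the odd-numbered experiments and with Cy5 in the even-numbered ones. Each value below is a log2 ratio of mutant over wt, so that 1 is a 2-fold higher level in the mutant, and each mean is over 2 biological replicates, with the standard deviation (SD) between them.

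The labels do not say whether each wt RNA came from a separate culture or whether the sets shared one. The p-values therefore measure the spread between the replicate means of these ratios. PTC1 averaged -2.56 ± 0.18 in ptc1 ptc6 cells (SD, n = 2), and PTC6 averaged -3.94 ± 1.11 in ptc1 ptc6 cells and -2.34 ± 0.11 in ptc6 cells (SD, n = 2 each). The deleted genes were therefore low where the labels place the deletions, on every array that measured them. Over all ORFs, the replicate means of ptc1 ptc6 correlated with each other at r = 0.76 (4596 ORFs), whereas those of ptc6 correlated at r = 0.12 (4824 ORFs). Replicate 2 of ptc6 also ran against the ptc1 ptc6 replicates, at r = -0.30 and -0.41, so the medians in ptc6 are also given for each replicate. Arrays of like dye orientation correlated between that replicate and ptc1 ptc6 at -0.10 to -0.27.

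Depth could not be given as counts. Spots that were too small or too dim had been removed, and 51 of the 54 genes had a value on at least 1 array. MRPL13, MRPL15 and MRPL17 had none, and 37 genes had values on all 8 arrays. A gene was tested in a mutant when at least 2 of 4 arrays and both biological replicates gave a value, which left 46 genes in ptc1 ptc6 (28 large, 18 small), 45 in ptc6 (27 large, 18 small) and 44 for the difference between the mutants.

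**Figure D1:**
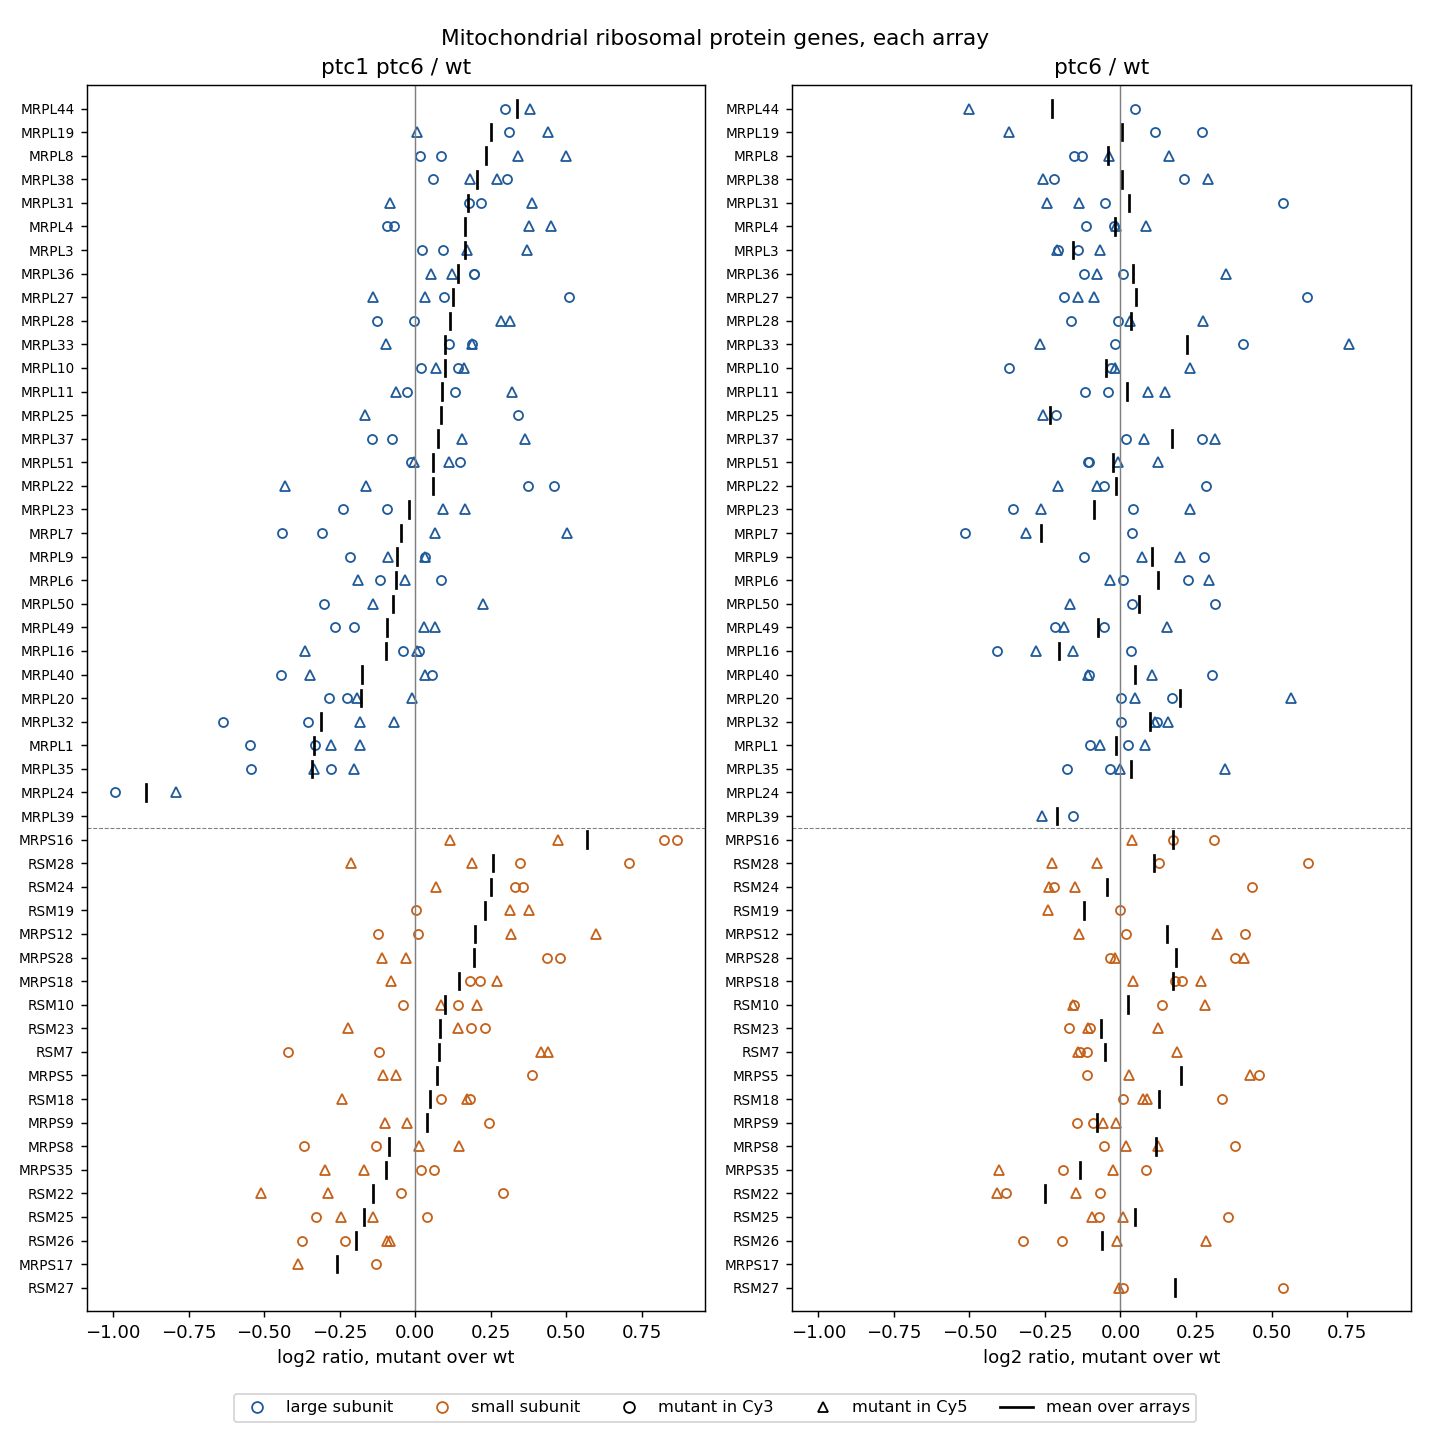
Log2 ratio of mutant over wt (x axis) for each mitochondrial ribosomal protein gene (y axis), in ptc1 ptc6 on the left and ptc6 on the right. Circles are arrays with the mutant in Cy3, triangles arrays with the mutant in Cy5, black ticks the mean over the arrays with a value. Most genes straddled 0, and the means farthest from 0 were those of MRPS16 and MRPL24 in ptc1 ptc6.

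Mitochondrial ribosomal protein transcripts stayed close to the wt level in ptc1 ptc6 cells. Their median log2 ratio was 0.08 over the 46 genes tested, with quartiles of -0.08 and 0.16 and extremes of -0.34 and 0.57, against a median of -0.05 over the 4596 ORFs tested. Without replicate 1 of ptc1 ptc6 the median was 0.13, and without replicate 2 it was 0.00. The ratio was above 0 for 30 genes and below 0 for 16. By limma with Benjamini-Hochberg adjustment over all ORFs tested, 1 of the 46 was called, MRPS16, which was higher, against 14.1% of all ORFs tested (5.64% higher and 8.49% lower). At an unadjusted p under 0.05 the count was 5 of 46, beside 34% of all ORFs.

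Cytosolic ribosomal protein genes, which encode the ribosome that makes the mitochondrial ribosomal proteins themselves, gave other values in ptc1 ptc6 cells. Their median was -0.71 over 125 genes tested, none lay above 0, and 106 were called lower. Of the 46 mitochondrial ribosomal protein genes tested, none was called lower and none lay under -0.5 log2. The lowest mitochondrial gene tested stood at -0.34, and the upper quartile of the cytosolic genes at -0.61, with a highest value of -0.19. No test of the difference between the groups was made.

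In ptc6 cells the mitochondrial ribosomal protein genes were also near the wt level. Their median was 0.03 over 45 genes, with extremes of -0.32 and 0.27, beside 0.02 over all 4824 ORFs tested and 0.02 over 126 cytosolic ribosomal protein genes. These means hide opposite replicates. In replicates 1 and 2 the mitochondrial medians were 0.14 and -0.06, and the cytosolic medians -0.20 and 0.25. By limma 0 of the 45 passed an adjusted p of 0.05, and 0 of 45 had an unadjusted p under 0.05. The share of all ORFs called was 0%, with 8% at the unadjusted threshold.

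Size limits can be read from the 95% confidence intervals of the same limma model. In ptc1 ptc6 the interval lay inside a 2-fold change in either direction for 46 of 46 genes, and inside 1.5-fold for 42 of 46 (91.3%, against 65.4% of all ORFs tested). In ptc6 the interval lay inside 2-fold for 45 of 45 genes and inside 1.5-fold for 42 of 45 (93.3%, against 86.6% of all ORFs). By the 2-fold rule of the study's methods, a mean over at least 2 arrays of 1 or more in size, 0 of 49 genes passed in either mutant, beside 1.98% of ORFs in ptc1 ptc6 and 0.0549% in ptc6.

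**Figure D2:**
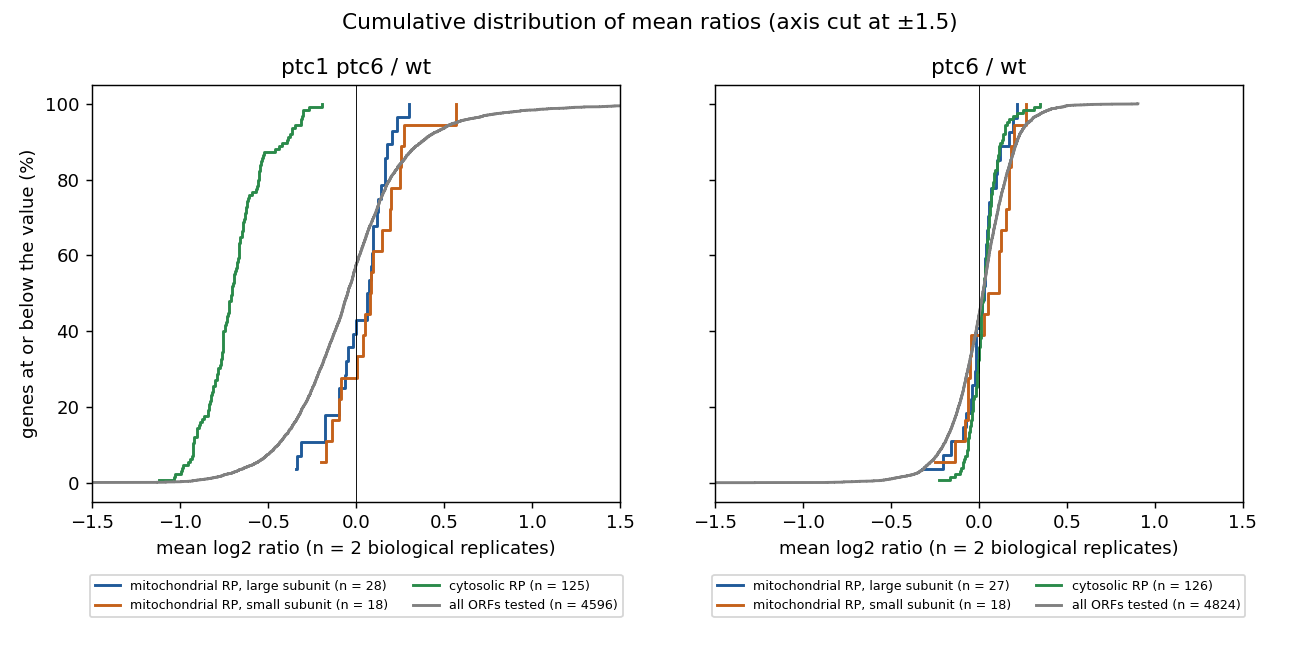
Cumulative share of genes (y axis, percent) at or below a mean log2 ratio (x axis, 2 biological replicates) in ptc1 ptc6 (left) and ptc6 (right), for large-subunit and small-subunit mitochondrial ribosomal protein (RP) genes, cytosolic RP genes and all ORFs tested. In ptc1 ptc6 the curves of both mitochondrial subunits crossed 50% at 0.07 and 0.08, and the cytosolic curve at -0.71. In ptc6 the 4 curves of means lay together around 0. The cytosolic median there was -0.20 in replicate 1 and 0.25 in replicate 2.

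Large- and small-subunit genes had near-equal medians in ptc1 ptc6 cells, 0.07 for 28 large-subunit genes and 0.08 for 18 small-subunit genes. The large minus small difference was -0.01 in the means, and -0.01 and -0.03 in the 2 biological replicates. On single arrays it was -0.22 and 0.07 in experiments 1 and 2, and -0.07 and 0.01 in experiments 3 and 4. Large-subunit genes were thus the lower group on both arrays with the mutant in Cy3 and the higher group on both with the mutant in Cy5, so no order of the subunits held across the dye swap.

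In ptc6 cells the medians were 0.03 for 27 large-subunit genes and 0.08 for 18 small-subunit genes. The difference was -0.05 in the means, with -0.08 in replicate 1 and 0.01 in replicate 2 (SD 0.06, n = 2). Its size was below the SD between the replicates. On experiments 1, 2, 5 and 6 it was -0.19, -0.01, 0.02 and 0.00. It was thus below 0 on the arrays of replicate 1 and barely above 0 on those of replicate 2. With the mutant in Cy3 only it was -0.190, and with the mutant in Cy5 only 0.0178, so its sign changed with the dye as well.

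**Figure D3:**
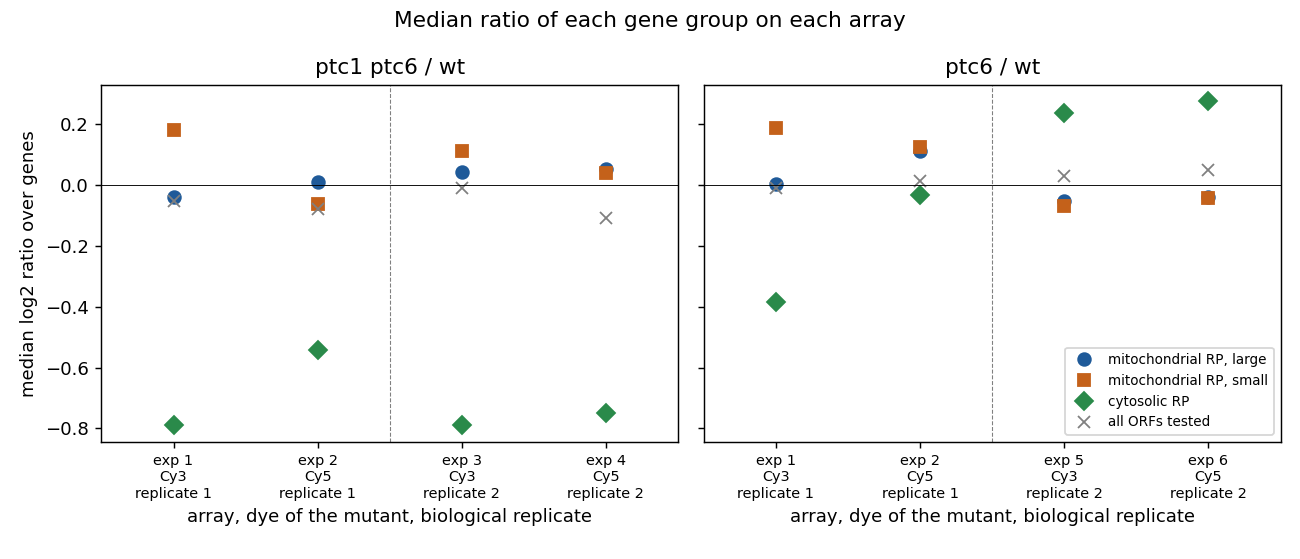
Median log2 ratio (y axis) of large-subunit and small-subunit mitochondrial RP genes, cytosolic RP genes and all ORFs tested on each array (x axis, with the mutant's dye and the biological replicate), in ptc1 ptc6 (left) and ptc6 (right). The mitochondrial medians stayed between -0.07 and 0.19 on all 8 arrays. The cytosolic medians were -0.54 or lower on the 4 ptc1 ptc6 arrays and changed sign between the replicates of ptc6.

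A finer split set the genes with a bacterial counterpart apart from those found in mitochondrial ribosomes alone. In ptc1 ptc6, 10 of 11 small-subunit genes with a bacterial counterpart were above 0, with a median of 0.10, against 3 of 7 mitochondria-specific small-subunit genes, with a median of -0.10. The medians were 0.02 and 0.00 in replicate 1 and 0.15 and -0.08 in replicate 2. In ptc6 the same groups had medians of 0.14 (8 of 10 above 0) and -0.05 (3 of 8 above 0), with 0.21 and 0.08 in replicate 1 and -0.02 and -0.11 in replicate 2. The order turned round on experiment 1 of both mutants, where the medians were 0.07 for the genes with a bacterial counterpart and 0.23 for the mitochondria-specific ones in ptc1 ptc6, and 0.19 and 0.22 in ptc6. Large-subunit genes did not follow that order: their medians in ptc1 ptc6 were 0.00 for 19 with a bacterial counterpart and 0.09 for 9 mitochondria-specific ones, and in ptc6 they were 0.01 for 19 (0.10 and -0.08 in replicates 1 and 2) and 0.03 for 8 (0.11 and -0.0048 in replicates 1 and 2). These are descriptions of small groups, and 1 of the genes in them, MRPS16, passed the test in 1 mutant.

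MRPS16, the one gene called, encodes the counterpart of bacterial S16, a small-subunit protein that joins early in assembly of the bacterial particle. In ptc1 ptc6 cells it read 0.87 and 0.47 in replicate 1 and 0.82 and 0.12 in replicate 2, the first of each pair with the mutant in Cy3. In ptc6 cells it read 0.17 in experiment 1, 0.31 in experiment 5 and 0.04 in experiment 6, with no value in experiment 2. All 7 values were above 0, and the ranges of the mutants overlapped at the low end of ptc1 ptc6.

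Its mean was 0.57 ± 0.14 in ptc1 ptc6 cells (SD, n = 2; limma adjusted p = 0.0286) and 0.17 ± 0.001 in ptc6 cells (SD, n = 2; limma adjusted p = 0.676). The difference between the mutants was 0.40, with a limma adjusted p of 0.179, and so was not called. The ptc1 ptc6 values were larger in Cy3 (mean 0.85) than in Cy5 (mean 0.29), and with the Cy5 arrays alone the call was lost (limma adjusted p = 0.190). It was also lost without replicate 1 of ptc1 ptc6 (0.47, limma adjusted p = 0.167) and without replicate 2 (0.67, limma adjusted p = 0.0703), fits in which the 1 replicate left in ptc1 ptc6 was assumed to vary like those of ptc6.

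MRPL35, MRPL1 and MRPL32, all of the large subunit, stood lowest among the genes tested in ptc1 ptc6, and none of them passed. MRPL1, the counterpart of L1, which forms the stalk beside the tRNA exit site in bacteria, read -0.55, -0.18, -0.33 and -0.28 on experiments 1 to 4. MRPL35, a mitochondria-specific protein, read -0.54, -0.20, -0.28 and -0.34. MRPL32, the counterpart of L32, whose precursor is cut by the mitochondrial m-AAA protease before it enters the ribosome, read -0.64, -0.18, -0.35 and -0.07. All 12 of these values were below 0.

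Their means in ptc1 ptc6 cells were -0.34 ± 0.05 for MRPL35 (limma adjusted p = 0.088), -0.34 ± 0.04 for MRPL1 (limma adjusted p = 0.077) and -0.31 ± 0.14 for MRPL32 (limma adjusted p = 0.099; SD, n = 2 for each). In ptc6 cells the same genes averaged 0.03, -0.02 and 0.10, each with a limma adjusted p over 0.8. When all 8 arrays entered the model, with the dye-swapped pair as a random block, these 3 genes passed in ptc1 ptc6 along with MRPS16. That setting called 4 of 46 mitochondrial ribosomal protein genes, beside 1351 of 4596 ORFs. It estimated a correlation of -0.09 within pairs, and so counted arrays of the same RNAs nearly as independent samples.

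MRPL24, the counterpart of L28, had the lowest mean of all and was left out of the test because replicate 2 gave no value. It read -0.99 and -0.79 on the arrays of ptc1 ptc6 replicate 1, and gave no value on the other 6 arrays. It was the single gene past 1.5-fold in the mean over the arrays with a value. When any value sufficed for the test it was called lower. That call rested on 1 biological replicate, with a spread taken from other ORFs alone, and so not on replication. The next gene on its chromosome is RPL36A, which encodes a cytosolic ribosomal protein and read 0.32 and 0.12 on the same arrays, against -0.99 and -0.96 in replicate 2. The neighbours thus gave unlike values in replicate 1. RPL36A was itself unlike its group there: of 125 cytosolic ribosomal protein genes tested, 1 was above 0 in replicate 1, and their median was -0.66. It is therefore no sound reference for MRPL24 in that replicate, and the identity of these spots was not tested.

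Other low genes in ptc1 ptc6 were RSM26 at -0.20, MRPL20 and MRPL40 at -0.18, RSM25 at -0.17 and RSM22 at -0.14. MRPL40 corresponds to L24, one of the proteins around the exit of the peptide tunnel, and RSM22 is a methyltransferase-like protein bound to the small subunit. RSM26 and MRPL20 were below 0 on 4 of 4 arrays. MRPL40 was low in replicate 1 (-0.45 and -0.35) and at 0.06 and 0.03 in replicate 2. Their limma adjusted p-values ranged from 0.227 to 0.485.

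On the high side in ptc1 ptc6, MRPL19 (L11, at the base of the stalk where translation factors bind) averaged 0.30, the mitochondria-specific RSM24 0.27 and RSM28 0.26, RSM19 (S19) 0.25, MRPL8 (L17) 0.24, and MRPL38 (L14) and MRPS12 (S12, part of the decoding centre) 0.20 each. None passed the test, with limma adjusted p-values of 0.143 to 0.361. MRPL19 and RSM19 had 1 array in replicate 1, with the mutant in Cy5 (0.44 and 0.31), and RSM24 had 1 with the mutant in Cy3 (0.33). The means of these genes therefore do not balance the dyes. MRPL8 and MRPL38 were above 0 on 4 of 4 arrays. RSM28 ranged between -0.21 and 0.71, and MRPS12 between -0.12 and 0.60.

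MRPL22, RSM22 and RSM27 also lie beside a cytosolic ribosomal protein gene. MRPL22, next to RPS3, averaged 0.06 in ptc1 ptc6 cells, where RPS3 averaged -0.55 ± 0.07 (limma adjusted p = 0.0496). RSM22, next to RPS27A, averaged -0.14, where RPS27A averaged -0.53 ± 0.11 (limma adjusted p = 0.0356; SD, n = 2 for each). RSM27, next to RPS0A, had no value in ptc1 ptc6. In the 2 of these pairs with both genes tested, the cytosolic gene was called lower and its mitochondrial neighbour was not. Such calls were common, at 106 of 125 cytosolic genes tested. RPL36A, beside the untested MRPL24, was not called (-0.38, limma adjusted p = 0.397). Of the 54 genes, 2 overlap another annotated gene (MRPL19 with YNL184C, MRPL51 with YPR099C). The spots were PCR-amplified ORFs and so cannot separate transcripts that share an overlap.

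Few genes kept 1 direction on all arrays of ptc1 ptc6. In ptc1 ptc6, 39 genes had 4 values. Of these, 6 were above 0 on every array (MRPL3, MRPL8, MRPL10, MRPL36, MRPL38 and MRPS16) and 5 below 0 on every array (MRPL1, MRPL20, MRPL32, MRPL35 and RSM26). Together they made 28.2% of the genes, beside 45.4% of all ORFs with 4 values (15.6% above and 29.9% below).

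For as many genes, 11 of 39 or 28.2%, the sign in ptc1 ptc6 followed the dye, which held for 18.3% of all ORFs. MRPL22, the counterpart of L22, was one of them, at 0.37 and 0.46 with the mutant in Cy3 and -0.43 and -0.16 with the mutant in Cy5. RSM7, the counterpart of S7, ran the other way, at -0.42 and -0.12 in Cy3 and 0.44 and 0.42 in Cy5. In 3 genes (MRPL9, MRPL16 and MRPL40) the sign followed the replicate, beside 3.36% of all ORFs. The median size of the genotype mean was 0.12 in these 39 genes and that of the Cy3 minus Cy5 contrast, on the same scale, was 0.11. Over all ORFs with 4 values those sizes were 0.20 and 0.11. The means cancel a dye effect that is equal in size on both arrays of a pair, and the part of the dye in each gene's values was not tested.

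Correlations across genes showed the same pattern, as a description over genes that share arrays and are not independent. Between arrays of ptc1 ptc6 with the mutant in the same dye, r over the mitochondrial ribosomal protein genes was 0.82 (experiments 1 and 3, 40 genes) and 0.53 (experiments 2 and 4, 44 genes). Between arrays of opposite dye it was 0.04 to 0.21, the dye-swapped pairs of the same RNAs included. Over all ORFs the same-dye values were 0.77 and 0.79 and the opposite-dye values 0.48 to 0.59. Thus in ptc1 ptc6 an array was more like the other replicate in the same dye than like its own dye swap, in these genes as over all ORFs. In ptc6 that order was absent. There r over these genes was 0.08 and 0.00 between arrays of the same dye, and 0.11 in each dye-swapped pair.

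In ptc6 cells the lowest genes were MRPL7 at -0.32, RSM22 at -0.25, MRPL16 at -0.20, MRPL3 at -0.16 and MRPS35 at -0.13, and then MRPL23, MRPS9 and MRPL49 at -0.08 or -0.09. The highest were RSM27 at 0.27, MRPL33 at 0.22, MRPS5, MRPL20 and MRPS28 at 0.18 to 0.20, and MRPS16, MRPS18 and MRPL37 at 0.17. No value among these passed the test, and the limma adjusted p-values of the 16 genes ranged from 0.602 to 0.890. MRPL7, RSM27 and MRPS16 had 1 array in replicate 1, with the mutant in Cy3 (-0.51 for MRPL7), so their means do not balance the dyes. MRPL7 corresponds to L5, MRPL16 to L16, MRPL33 to L30, and MRPS5, MRPS18 and MRPS28 to S5, S11 and S15.

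Several of the highest genes in ptc6 were high in replicate 1 alone. MRPL33 read 0.41 and 0.76 in replicate 1 and -0.02 and -0.27 in replicate 2. MRPS5 read 0.46 and 0.43 in replicate 1 and -0.11 and 0.03 in replicate 2. RSM27 read 0.54 on its one array of replicate 1 and 0.01 and -0.01 in replicate 2. None of these 3 genes was above 0.05 on an array of replicate 2.

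Over the 45 genes tested in ptc6, the median was 0.14 in replicate 1, with 34 above 0, and -0.06 in replicate 2, with 15 above 0. Cytosolic ribosomal protein genes lay the other way round in the same replicates, at -0.20 in replicate 1 and 0.25 in replicate 2 by the median. The median over general stress genes was 0.15 in the first of them and -0.35 in the second. In the 40 mitochondrial ribosomal protein genes with 4 values the replicate 1 minus 2 contrast had a median size of 0.12, against 0.07 for the genotype mean. What set the replicates apart was not tested.

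In ptc6 the share of genes that kept 1 sign was close to that over all ORFs. On 4 of 4 arrays, 5 of 40 genes were above 0 (MRPL20, MRPL32, MRPL37, MRPS18 and RSM18) and 3 below 0 (MRPL3, MRPS9 and RSM22), together 20% of the genes beside 20.9% of all ORFs with 4 values (13.8% above and 7.14% below). In 8 genes (20%, against 16.2% of all ORFs) the sign followed the replicate, and in 3 (7.5%, against 7.69%) it followed the dye. Among the 8, 7 were higher in replicate 1: MRPL23, MRPL33, MRPL38, MRPL40, MRPS28, RSM10 and RSM25.

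**Figure D4:**
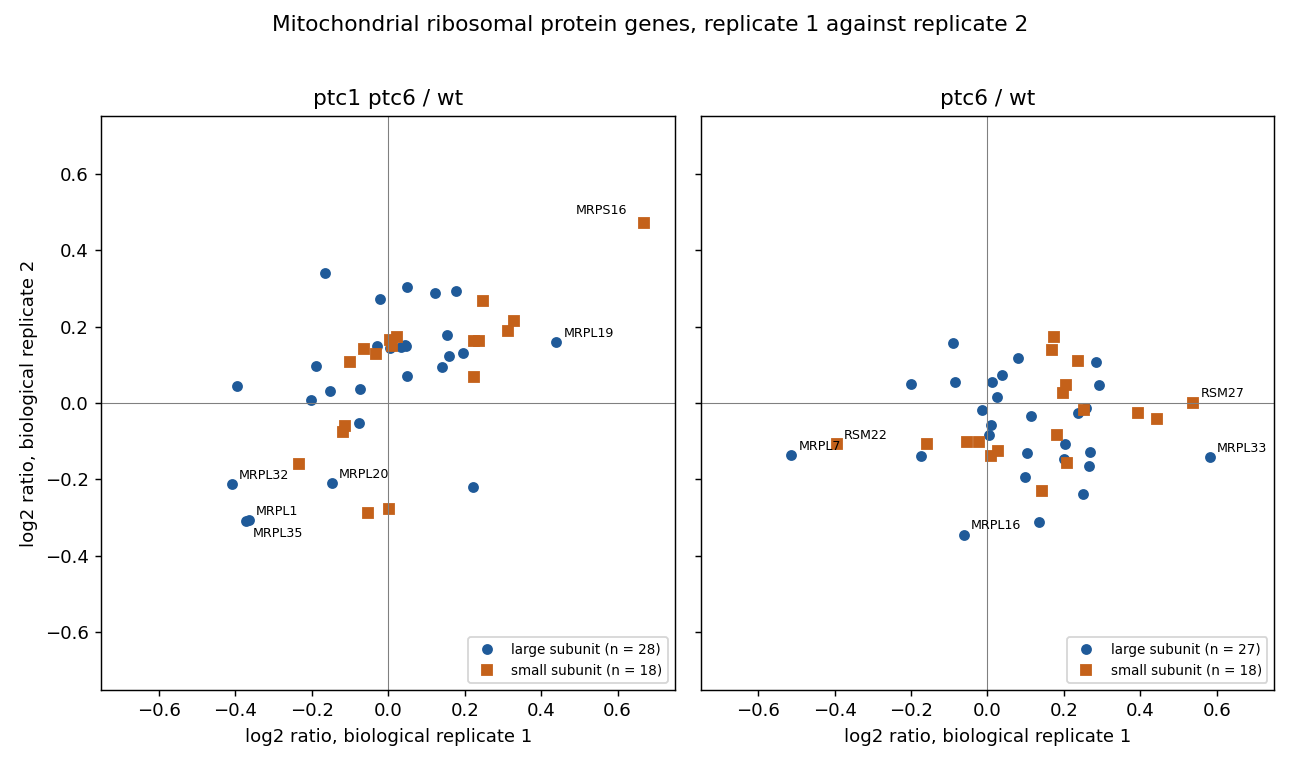
Log2 ratio in biological replicate 1 (x axis) against biological replicate 2 (y axis) for mitochondrial ribosomal protein genes, each point 1 gene and the mean of its dye-swapped arrays, in ptc1 ptc6 (left) and ptc6 (right). The ptc1 ptc6 points rise together (r = 0.60 over 46 genes), with MRPS16 at the top right and MRPL1, MRPL32 and MRPL35 at the bottom left. The ptc6 points show no such trend (r = 0.09 over 45 genes).

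Between the mutants, the difference of ptc1 ptc6 minus ptc6 had a median of 0.07 over 44 genes, beside -0.09 over all 4361 ORFs tested and -0.74 over 123 cytosolic ribosomal protein genes. By limma 0 of 44 were called (3 at an unadjusted p under 0.05: MRPL20, MRPL32 and MRPS16), against 0.206% of all ORFs (0.161% higher and 0.0459% lower in ptc1 ptc6), with 24.3% at the unadjusted threshold. The 95% interval of the difference lay inside 2-fold for 44 of 44 genes and inside 1.5-fold for 27 of 44 (61.4%, against 39% of all ORFs tested). The highest differences were those of MRPS16 (0.40), MRPL3 and RSM24 (0.32 each), MRPL7 and MRPL8 (0.28 each).

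The lowest differences belonged to 5 large-subunit genes, MRPL32 (-0.41), MRPL20 (-0.37), MRPL35 (-0.37), MRPL1 (-0.32) and MRPL40 (-0.22). MRPL20, a mitochondria-specific protein, read -0.29, -0.01, -0.23 and -0.19 in ptc1 ptc6 cells, against 0.00, 0.56, 0.17 and 0.05 in ptc6 cells. MRPL32, given above for ptc1 ptc6, read 0.00, 0.16, 0.12 and 0.12 in ptc6. MRPL3, a mitochondria-specific protein of the RNase III fold, read 0.02, 0.37, 0.09 and 0.17 in ptc1 ptc6 cells, against -0.14, -0.21, -0.21 and -0.07 in ptc6 cells. The values of the 2 mutants did not overlap for any of these 3 genes.

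Of the 37 genes with 8 values, the 4 arrays of ptc1 ptc6 lay wholly above those of ptc6 for 1, MRPL3, beside 5.36% of all ORFs with 8 values. They lay wholly below for 4, MRPL1, MRPL20, MRPL32 and MRPL35, beside 16.9% of all ORFs. The limma test of the difference gave adjusted p-values of 0.170 for MRPL32, 0.195 for MRPL20, 0.208 for MRPL35, 0.226 for MRPL3 and 0.237 for MRPL1. Each mutant was hybridised in a set of its own, and a difference between sets and one between genotypes cannot be told apart.

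Other genes of mitochondrial translation gave similar small values. A list of 23 further mitoribosomal proteins whose symbols fall outside the naming rule, such as MRP7 (the counterpart of L27), NAM9 (S4) and RML2 (L2), had a median of 0.11 over 19 tested in ptc1 ptc6 and 0.06 over 21 in ptc6, with 0 called in either. In ptc6 its median was 0.15 in replicate 1 and -0.07 in replicate 2. In ptc1 ptc6 the extremes of that list were SWS2 (S13) at 0.42 and RML2 at -0.29. Translation factors, such as the elongation factor TUF1, had medians of -0.05 (7 tested) and -0.04 (8 tested), and the translational activators of single mitochondrial mRNAs -0.05 (11) and 0.01 (14), in ptc1 ptc6 and ptc6. Mitochondrial aminoacyl-tRNA synthetases had medians of 0.10 over 11 tested in ptc1 ptc6 and -0.13 over 13 in ptc6, and the factors for mitoribosome assembly and rRNA modification 0.04 over 3 and -0.07 over 6. In replicates 1 and 2 of ptc6 the medians were -0.09 and -0.16 for the translation factors, 0.03 and -0.04 for the activators, -0.04 and -0.23 for the synthetases and 0.05 and -0.19 for the assembly factors. None of these genes was called in either mutant.

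The nuclear-encoded subunits of the respiratory chain and the ATP synthase assemble with the proteins that mitochondrial ribosomes make. In ptc1 ptc6 cells their median was -0.07 over 21 tested, and 1, COX5A, a subunit of cytochrome c oxidase, was called lower (-0.49). In ptc6 cells their median was 0.33 over 24 tested, all 24 were above 0 and 12 had an unadjusted p under 0.05, but 0 were called. The replicate medians in ptc6 were 0.46 and 0.19. The difference between the mutants was below 0 for 20 of 20 tested, with a median of -0.53 and 0 called. In both replicates of ptc6 these subunits had higher medians than the mitochondrial ribosomal protein genes, at 0.14 and -0.06. The 2 groups were not tested against each other.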

How the data were processed

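RNA of mutant and wt cells was labelled with Cy3 or Cy5 by indirect labelling and hybridised to arrays of PCR-amplified ORFs. The authors scanned the slides, quantified spots with GenePix Pro 6.0, dropped spots under 120 µm in diameter or under 150 units in Cy3 and Cy5, and processed the data with GEPAS 3.0. The deposited values are log2 ratios, 1 per ORF and array. The base was taken from the study's use of log2 values and is not stated for the table. The direction, mutant over wt, was read from the deleted genes, which were low in both dye orientations, and the normalization method is not given in the sources used here. ORFs were named through the gene table of the R64 assembly (5662 of 6212 matched).

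Dye-swapped arrays were averaged into 1 biological replicate. One limma model (version 3.58.1, R 4.3.3; lmFit and eBayes, two-sided) held both mutants, tested each mean against 0 and the difference between mutants, and adjusted p-values by Benjamini-Hochberg over all ORFs tested. The procedure was tested on simulated data, with changes planted in ORFs that had a value on every array. Its checks set no requirement for changes as small as those of the mitochondrial ribosomal protein genes. Tests against 0 hold the wt spread only if wt cultures were separate. Subunits and gene lists were described by counts and medians, with no test. The members and lists were chosen with earlier results of these data known. Genes named were the 8 lowest and 8 highest means in each mutant, the 5 lowest and 5 highest differences, any gene called, and the deleted genes. MRPL24, the neighbours of cytosolic genes, the genes given for their sign patterns and those named from other lists were chosen after their values were seen. Promoter motifs were not searched, and no sequences were used here.

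Alternatives covered centring and scaling of arrays, fitting each mutant alone, all 8 arrays with a random block, the minimum of arrays, each dye alone, the replicate number as a block, a crossed pairing (added after seeing the data), and leaving out each replicate. Whether the replicate numbers pair the samples is not known. Deviations of same-numbered replicates correlated at -0.21 over 4361 ORFs. With 2 replicates in each mutant, the crossed numbering only turns that sign round, so the value cannot settle the pairing.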

Additional observations from a re-analysis of the deposited data

Results flagged for a closer look

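With 4 arrays in a group, 4 of 85 groups of values held 1 array far from the other 3. The rule would flag 1 in 20 groups of independent values. The arrays of a group are dye-swapped pairs and not independent, so that rate need not hold here. MRPL16 read -0.37 (-0.366) on experiment 2 of ptc1 ptc6, where its other values lay between -0.04 and 0.01. MRPL27 read 0.62 (0.619) and RSM24 read 0.44 (0.436) on experiment 1 of ptc6, where their other values were all below 0. RSM7 read 0.19 (0.186) on experiment 2 of ptc6, where the others were -0.11 to -0.14. These 4 values sit on 3 arrays, all in replicate 1 of their mutant.

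For 3 genes every array of ptc1 ptc6 lay on one side of 0 and every array of ptc6 on the other. The difference of ptc1 ptc6 minus ptc6 was -0.41 for MRPL32, -0.37 for MRPL20 and 0.32 for MRPL3, and none of these differences passed the limma test (adjusted p = 0.170, 0.195 and 0.226). The share of all ORFs with such opposite signs was not counted. By the looser rule of no overlap, ptc1 ptc6 lay wholly above ptc6 for 5.36% of all ORFs with a value on every array. It lay wholly below for 16.9% of them. Among the 37 mitochondrial ribosomal protein genes with a value on every array, 1 lay wholly above and 4 wholly below.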

How the results depend on the processing

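In ptc1 ptc6, where MRPS16 alone was called, the number of mitochondrial ribosomal protein genes called was 0 with arrays centred and scaled, 0 with the mutant in Cy5 only, 4 with all 8 arrays and a random block (MRPL1, MRPL32, MRPL35 and MRPS16) and 2 when any value sufficed (MRPL24 and MRPS16). Leaving out 1 replicate at a time gave 0 to 1; the gene called was MRPS16 without either ptc6 replicate and MRPL24 without ptc1 ptc6 replicate 2, and none was called without ptc1 ptc6 replicate 1. A lone replicate was assumed to vary like those of the other mutant. MRPL24 had no value in ptc6, so in each fit that called it the spread came from other ORFs alone. The random block estimated a correlation of -0.09 within dye-swapped pairs, and so counts arrays of the same RNAs nearly as independent samples. At 1.5-fold in place of 2-fold, 1 gene passed (MRPL24). In ptc6 0 were called under every alternative, and in the difference under every one that gives a difference (fitting each mutant alone does not).

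The large minus small median was -0.138 with the mutant in Cy3 and 0.089 with the mutant in Cy5 in ptc1 ptc6. In ptc6 it was -0.190 with the mutant in Cy3 and 0.0178 with the mutant in Cy5. The causes were not tested. The median over the genes in ptc1 ptc6, 0.08, was 0.13 with arrays centred on their medians, 0.13 without its replicate 1 and 0.0025 without its replicate 2. The median in ptc6 was -0.08 without its replicate 1 and 0.14 without its replicate 2. With the replicate number as a block, 1, 0 and 0 of these genes were called in ptc1 ptc6, ptc6 and the difference. No call among these genes changed, and the crossed pairing also gave 1, 0 and 0. The ORFs called in the difference rose from 9 to 268 with the block and to 482 with the crossed pairing. Over all ORFs, 649 were called in ptc1 ptc6, 0 in ptc6 and 9 in the difference, with ranges over the alternatives of 17 (centring and scaling) to 1351 (random block), 0 to 18 (replicate block) and 0 (without replicate 2 of ptc6) to 749 (random block). With 2 replicates a group and ratios from dim spots removed, small changes of single genes were at the limit of these arrays.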
